A study of Mus musculus with 12 samples.

Results

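The Slc25 genes encode the mitochondrial carrier family, and their expression was examined in normal mouse colon after 11 weeks on a methyl deficient or a methyl sufficient diet. The members were all array probes whose annotated symbol is Slc25a followed by a number, 57 probes of 39 genes, among 25697 probes and 16593 named genes in all. Of these, 37 probes of 28 genes were detected, meaning a detection p-value under 0.05 on at least 4 of the 12 arrays, against 13497 detected probes in the whole table. The tested mice were ApcMin animals on the deficient diet, labelled as 4 animals with 2 arrays each. The comparison mice were ApcMin animals on the sufficient diet, labelled as 2 animals with 2 arrays each. Every mouse therefore carried the Min mutation of the tumour suppressor Apc, no wild-type colon was measured, and the labels give neither the age of the mice nor the diets' composition.

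Carriers of this family sit mostly in the inner mitochondrial membrane and exchange one metabolite for another between the cytosol and the mitochondrial matrix. They move ADP and ATP, phosphate, carboxylates, amino acids, acylcarnitines, cofactors and metals, so that respiration, fatty acid oxidation, urea and heme synthesis and one-carbon metabolism all pass through them. In the colon, epithelial cells burn short-chain fatty acids in their mitochondria, and smooth muscle of the wall also holds many mitochondria. A methyl deficient diet limits the supply of S-adenosylmethionine, the methyl donor of most methyltransferases, which enters the matrix through Slc25a26.

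Values below are log2 signals after background correction and normalization, so a difference of 1 is a doubling, and each difference is deficient minus sufficient. The signal also depends on the probe, so levels of different genes are not compared with each other. The genes Kdm5d, Eif2s3y, Uty and Xist, which are read from the sex chromosomes, placed 8 arrays as male and 4 as female. By them, 4 labelled animals (sufficient 1 and 3, deficient 3 and 4) each joined a male and a female array. By these genes those 4 labelled animals cannot each be a single mouse. An SD over the sufficient ones also leaves out the spread between the arrays of those animals. The calls were therefore also made over sex-matched pairs, in which the arrays of those animals were rejoined by sex within each diet. The rejoined pairs come from expression and not from the labels, and the 2 fits share their differences but not their errors. Where only 1 adjusted p is printed, it is that over labelled animals. Median raw signals ran from 59.4 to 71.5 per array, and 12609 to 13241 probes were detected. Tgm4, a gene of the male accessory glands, was at 12.51 to 12.83 on 4 arrays (the sufficient male pair and deficient animal 2) and at 4.57 to 4.73 on the other 8.

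Markers of the layers of the colon wall were detected, and so were some of skeletal muscle, adipocytes and male accessory glands. The 8 epithelial markers averaged 10.41 to 10.75 on deficient arrays and 10.72 to 10.82 on sufficient arrays. The 8 smooth muscle markers averaged 10.71 to 11.71 on deficient arrays and 10.95 to 11.12 on sufficient arrays. Some other cell types differed between the diets over labelled animals. Fibroblast markers rose in 5 of 8 genes, with list means of 8.96 to 9.82 on deficient arrays and 8.44 to 9.23 on sufficient arrays. In the list of enteric neurons and glia all 4 detected markers rose, namely the neuronal genes Stmn2, Elavl4, Uchl1 and Syt1. Their list means were 6.64 to 7.28 on deficient arrays and 6.30 to 6.41 on sufficient arrays. The glial marker S100b was not detected, and Elavl4 was detected on 1 of 4 sufficient arrays, so its lower level was near background. Of 6 lymphocyte markers 4 fell, with list means of 5.55 to 6.44 on deficient arrays and 6.94 to 7.04 on sufficient arrays. Neutrophil markers fell in 2 of 4 genes and erythroid markers in 2 of 3. Of these, Slc4a1 was detected on 0 of 8 deficient arrays, S100a9 and Alas2 on 2 and Fpr2 on 6. Each was detected on 4 of 4 sufficient arrays, so the falls of Slc4a1, S100a9 and Alas2 run into background and their size is not well measured. Of 4 skeletal muscle markers Tnni2 fell, and the other 3 lay above 0 and did not pass. None of the epithelial, smooth muscle, macrophage, adipocyte or male accessory gland markers passed. Over labelled animals 10.8% of all detected probes passed. Over sex-matched pairs all of these marker calls were lost except the lymphocyte gene Mzb1, and the adjusted p of the 4 neuronal markers ran from 0.109 to 0.230 there. The part of these cell types in the carrier values was not tested, and fewer cells of a type cannot be told apart from less RNA per cell.

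Few carriers were called different between the diets. In limma's test over labelled animals, 3 of the 28 detected carriers (10.7%) passed an adjusted p of 0.05, where 10.8% of all detected probes passed, so the family's share was near that of the array. Of these 1 was higher, against 5.30% of all probes, and 2 were lower, against 5.51%. The carnitine-acylcarnitine carrier Slc25a20 and the uncoupling protein homologue Slc25a30 fell, and the aspartate-glutamate carrier Slc25a12 rose. Without sufficient animal 1 or 3 no carrier passed, but that diet was then a single animal, and calls over all probes dropped to 98 and 87, against 1460. The differences moved little: Slc25a20 was at -0.52 and -0.50, Slc25a30 at -0.53 and -0.41, and Slc25a12 at 0.43 and 0.41. Each sufficient animal joined a male and a female array, so leaving out either one kept a like mix of sexes. Leaving out a sufficient sex-matched pair left a single sex on that diet and moved Slc25a12 and Slc25a30 more, as given below. Without deficient animal 3 the call of Slc25a20 was left, with 1003 calls over all probes. Over sex-matched pairs none of the 28 passed, against 0.282% of all detected probes (38 probes); 3 carriers were past an unadjusted p of 0.05 in that fit, where 15% of all probes were. The median difference was -0.02 over the carriers and 0.01 over all detected probes, with 13 carriers above 0 and 15 below, where 51.2% of all probes lay above. At an unadjusted p of 0.05 over labelled animals 6 carriers passed, against 28.7% of all probes. By labelled animal the diets stood apart without overlap for 11 carriers (39.3%), against 42.6% of all probes, and the sex-matched pairs did not overlap for 5 (17.9%), against 25.0%. The median size of the difference was 0.14 for the carriers and 0.16 for all detected probes. Only Slc25a20 differed by more than 0.5, which is 3.57% of the carriers, against 9.32% of all detected probes. These carrier figures take 1 probe per gene, while those of the array count every probe. Counted by probe, the 37 carrier probes had a median size of 0.155, as did all detected probes. Of them 10 were past an unadjusted p of 0.05 in limma's test over labelled animals. Labelled animals stood apart for 45.9% of the carrier probes and sex-matched pairs for 24.3%, so by probe the family was near the array.

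**Figure D1:**
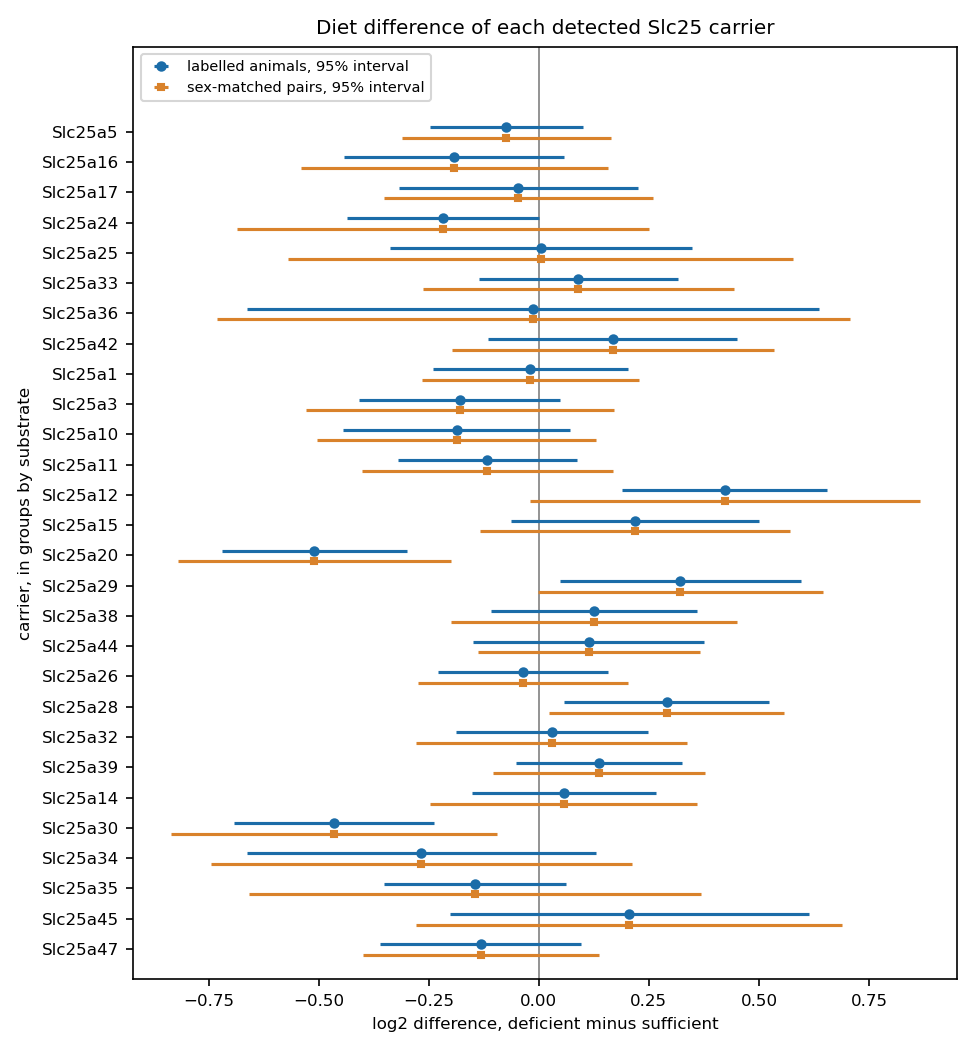
Log2 difference (deficient minus sufficient, x axis) of the 28 detected carriers, grouped by substrate down the page, with 95% limma intervals from labelled animals (circles) and sex-matched pairs (squares). Slc25a20 at -0.51 and Slc25a30 at -0.47 lie lowest and Slc25a12 at 0.42 highest, and most other intervals include 0.

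The promoters of the 3 carriers past the threshold are shown because a methyl donor diet bears on CpG methylation, which was not measured in these samples. Each line gives the 250 bases before the annotated start from RefSeq on GRCm38.p6, 5′ to 3′ on the gene's strand, with CpG dinucleotides in capitals. The stretch of Slc25a20, chr9:108661886-108662135 on the plus strand, holds 8 CpGs. That of Slc25a30, chr14:75787038-75787287 on the minus strand, holds 16, and that of Slc25a12, chr2:71367756-71368005 on the minus strand, holds 6.
Slc25a20: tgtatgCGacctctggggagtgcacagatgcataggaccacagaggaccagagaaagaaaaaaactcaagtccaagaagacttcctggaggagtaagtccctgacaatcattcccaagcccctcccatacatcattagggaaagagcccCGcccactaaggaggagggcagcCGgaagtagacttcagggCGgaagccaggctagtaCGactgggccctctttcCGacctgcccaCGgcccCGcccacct
Slc25a30: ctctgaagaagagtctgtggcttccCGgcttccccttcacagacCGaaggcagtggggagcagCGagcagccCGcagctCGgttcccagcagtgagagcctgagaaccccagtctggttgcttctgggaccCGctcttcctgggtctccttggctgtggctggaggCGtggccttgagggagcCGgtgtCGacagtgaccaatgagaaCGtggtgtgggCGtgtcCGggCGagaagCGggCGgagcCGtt
Slc25a12: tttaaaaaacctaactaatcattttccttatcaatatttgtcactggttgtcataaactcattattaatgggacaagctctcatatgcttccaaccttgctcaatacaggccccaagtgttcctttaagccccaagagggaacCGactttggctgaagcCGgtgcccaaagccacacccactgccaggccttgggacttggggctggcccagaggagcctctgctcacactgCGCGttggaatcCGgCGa

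RefSeq listed a promoter window of 300 bases, 250 before to 50 after the start, for 24 of the 28 detected carriers. For Slc25a14, Slc25a15 and Slc25a25, which have several listed starts, the first listed window was used. Those windows held 1 to 45 CpGs with a median of 21.5, where the 7714 detected genes with a window had a median of 20. Over the whole windows, the counts were 13 for Slc25a20, 25 for Slc25a30 and 12 for Slc25a12, so the carriers that passed lay on both sides of the family's median. Motifs were searched as letters on both strands. The GC box GGGCGG stood in 22 of 24 carrier windows (91.7%), in 62.4% of those of detected genes and in 35.7% of all 32851 windows. CCAAT stood in 13 carrier windows (54.2%), against 38.6% of detected genes and 37.4% of all windows. TATAAA stood in 0 of 24, against 8.3% and 13.6%. The Slc25a20 window holds GGGCGG and the ETS-type letters CCGGAAG (5 of 24 carriers, 17.4% of detected genes, 8.9% of all), the Slc25a30 window GGGCGG and CCAAT, and the Slc25a12 window none of the 7 motifs searched. The nuclear receptor half-site AGGTCA stood in 4 of 24 carrier windows, 12.5% of detected genes and 16.3% of all, and the E-box CACGTG also in 4. The NRF1 palindrome stood in 0 of 24, 1.9% of detected genes and 1.0% of all. No motif contains another, and a match is a description of letters only.

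Slc25a20 exchanges acylcarnitines for free carnitine, the step by which long-chain fatty acids enter the matrix for oxidation. Its brighter probe read 12.18 and 11.99 in deficient animal 1, 11.93 and 11.93 in animal 2, 11.86 and 11.88 in animal 3 and 12.07 and 11.74 in animal 4. On the sufficient diet it read 12.70 and 12.19 in animal 1 and 12.43 and 12.50 in animal 3. Every deficient array lay below every sufficient array, although the lowest sufficient value, 12.19, was only just above the highest deficient one. Over labelled animals the means were 11.95 ± 0.10 (SD, n = 4) on the deficient diet and 12.46 ± 0.02 (SD, n = 2) on the sufficient diet. The small sufficient SD comes from averaging a male and a female array in each animal, where single arrays ran from 12.19 to 12.70. The difference was -0.51 ± 0.09 (SE), a level 0.702 times that of the sufficient diet, with a limma adjusted p of 0.0135. Over sex-matched pairs its SE was 0.13, its 95% interval -0.82 to -0.20 and its adjusted p 0.165.

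The second detected probe of Slc25a20 moved the same way. It ran from 7.44 to 8.23 on the 8 deficient arrays, with a median of 8.07, and read 8.91, 8.66, 8.85 and 8.85 on the sufficient arrays. The arrays again did not overlap, and here the gap between the diets was wider. The difference was -0.83 ± 0.11 (SE), a level 0.564 times that of the sufficient diet, with a limma adjusted p of 0.00585 over labelled animals and 0.0736 over sex-matched pairs. Over all detected probes, 6.33% had all 8 deficient arrays on one side of all 4 sufficient arrays, and 3.06% had them below. Among carriers the lower side held only Slc25a20, with both of its detected probes.

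The fall of Slc25a20 stood in both sexes, but its size and call moved with the arrays used. The brighter probe differed by -0.66 among males and -0.34 among females, and the second by -0.91 and -0.69. Without the pairs that held Tgm4 signal the differences were -0.36 and -0.69. That fit sets deficient pairs of both sexes against the sufficient female pair alone, so diet and sex are mixed in it. The 3 detected carnitine shuttle enzymes, which make and use acylcarnitines on either side of the carrier, did not pass. Cpt2 differed by -0.25 (limma adjusted p 0.0793), Crat by 0.21 and Cpt1b by 0.01. Cpt1a was not detected.

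**Figure D2:**
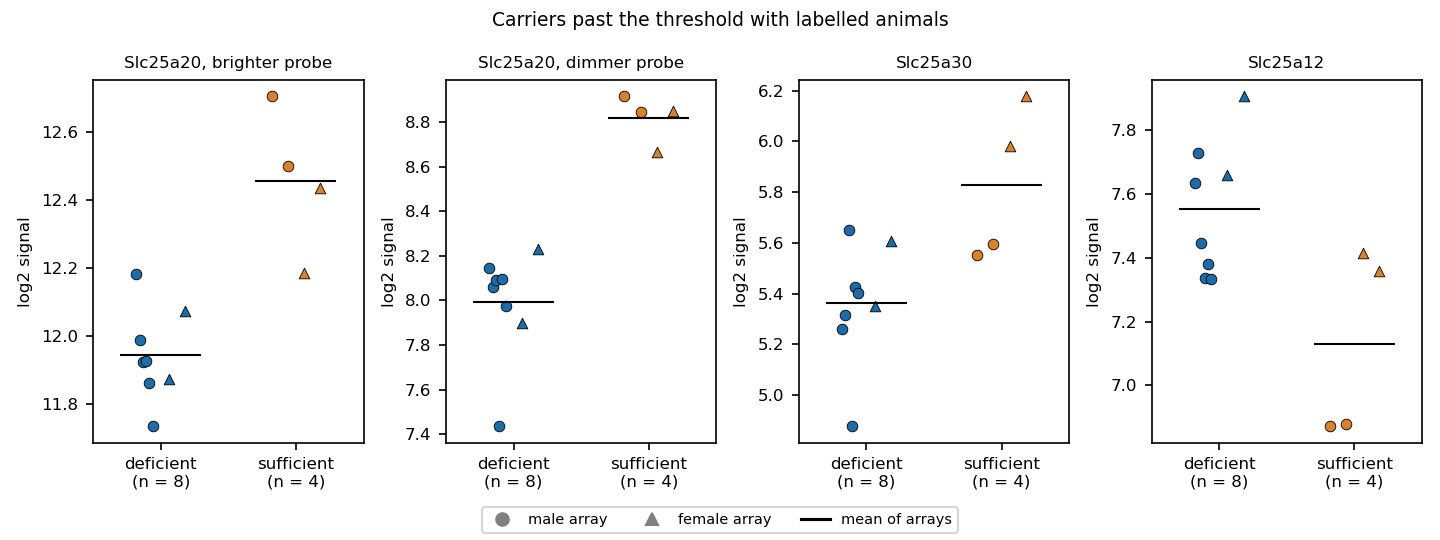
Log2 signal (y axis) on each array for the 3 carriers past the threshold, with both detected Slc25a20 probes, deficient arrays left of sufficient arrays and circles for males, triangles for females and lines for the mean of the arrays. The deficient and sufficient points are separate for both Slc25a20 probes and overlap for Slc25a30 and Slc25a12.

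Slc25a30 is a close homologue of the uncoupling proteins, known as the kidney mitochondrial carrier. It read 5.26, 5.32, 5.65, 4.88, 5.43, 5.35, 5.61 and 5.40 on the deficient arrays and 5.55, 5.98, 6.18 and 5.60 on the sufficient arrays. The groups overlapped, since 2 deficient arrays lay above the lowest sufficient array. The probe was dim: it was detected on 7 of 8 deficient and 4 of 4 sufficient arrays. Over labelled animals the means were 5.36 ± 0.11 (SD, n = 4) on the deficient diet and 5.83 ± 0.08 (SD, n = 2) on the sufficient diet. Each sufficient mean again joined a male and a female array, and single arrays ran from 5.55 to 6.18. The difference was -0.47 ± 0.10 (SE), with a limma adjusted p of 0.0241, against 0.253 over sex-matched pairs. It was -0.25 among males and -0.60 among females. It was -0.72 without the sufficient male pair and -0.21 without the sufficient female pair, where deficient pairs of both sexes met a single sex. The size also moved with the processing, at -0.79 in the authors' matrix values and -0.27 with a background offset of 50. The other detected homologue, Slc25a14, also called uncoupling protein 5, differed by 0.06.

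Slc25a12 exchanges matrix aspartate for cytosolic glutamate and is part of the malate-aspartate shuttle, which carries reducing equivalents from cytosolic NADH into mitochondria. It read 7.64, 7.73, 7.45, 7.34, 7.38, 7.66, 7.91 and 7.33 on the deficient arrays, with a median of 7.54. The sufficient arrays read 6.87 and 7.42 in animal 1 and 7.36 and 6.88 in animal 3. By the sex-linked genes, both sufficient male arrays lay below every deficient array, and both sufficient female arrays lay within the deficient range. Over labelled animals the means were 7.55 ± 0.13 (SD, n = 4) on the deficient diet and 7.13 ± 0.02 (SD, n = 2) on the sufficient diet. The small SD of the sufficient animals comes from averaging a male and a female array in each. The difference was 0.42 ± 0.10 (SE) with a limma adjusted p of 0.0374, and over sex-matched pairs its SE was 0.19 and its adjusted p 0.347. It was 0.60 among males and 0.40 among females. Dropping the sufficient male pair gave 0.17, dropping the sufficient female pair gave 0.68, and dropping the pairs with Tgm4 signal gave 0.22. Each of these fits sets deficient pairs of both sexes against a single sex on the sufficient diet, so diet and sex are mixed in them.

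Around Slc25a12, the second aspartate-glutamate carrier Slc25a13 was not detected. Of the 4 shuttle enzymes, cytosolic malate dehydrogenase Mdh1 fell, with 7.97 ± 0.11 (SD, n = 4) on the deficient diet and 8.35 ± 0.08 (SD, n = 2) on the sufficient diet. The difference of -0.39 had a limma adjusted p of 0.0466 over labelled animals and 0.282 over sex-matched pairs. Mdh2, Got1 and Got2 differed by -0.20, -0.03 and 0.05 and did not pass.

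The remaining amino acid carriers all differed by amounts above 0 and none passed. Slc25a29, a carrier of basic amino acids, ran from 5.24 to 5.70 on deficient arrays with a median of 5.44, and read 5.41, 4.99, 5.06 and 5.11 on sufficient arrays. Its difference was 0.32 (limma adjusted p 0.122), and the probe was detected on 7 of 8 deficient arrays but on 1 of 4 sufficient arrays, so the lower level was near background. Slc25a15, which exchanges ornithine and citrulline in the urea cycle, differed by 0.22, and Slc25a44, a carrier of branched-chain amino acids, by 0.11. Slc25a38, which brings in glycine for heme synthesis, differed by 0.13, with its other probes at 0.15 and 0.12. Of 7 detected enzymes of ornithine and arginine metabolism, Ass1, which joins citrulline and aspartate, rose by 0.55 (limma adjusted p 0.0217 over labelled animals and 0.126 over sex-matched pairs), and none of the other 6 passed.

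The carriers most directly tied to methyl donors did not differ detectably. Slc25a26 brings S-adenosylmethionine into the matrix, where it serves the methylation of mitochondrial RNA and proteins. It ran from 6.63 to 6.97 on deficient arrays, with a median of 6.84, and read 6.85, 6.84, 6.76 and 6.94 on sufficient arrays. Its arrays overlapped across nearly the whole range. The difference was -0.04, with a 95% interval of -0.23 to 0.16 and a limma adjusted p of 0.812 over labelled animals. Slc25a32, the carrier linked to mitochondrial folate and FAD, ran from 6.29 to 6.91 with a median of 6.72 on deficient arrays, and read 6.59, 6.73, 6.82 and 6.57 on sufficient arrays. The difference was 0.03, with an interval of -0.19 to 0.25 and a limma adjusted p of 0.870. The intervals over sex-matched pairs were -0.28 to 0.20 for Slc25a26 and -0.28 to 0.34 for Slc25a32, so changes inside those bounds cannot be seen with these arrays. None of the 5 detected enzymes of mitochondrial one-carbon metabolism passed. Their differences were -0.21 for Shmt2, which makes glycine from serine, -0.18 for Mthfd2, -0.19 for Gldc, -0.32 for Dld and 0.71 for Aldh1l2.

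**Figure D3:**
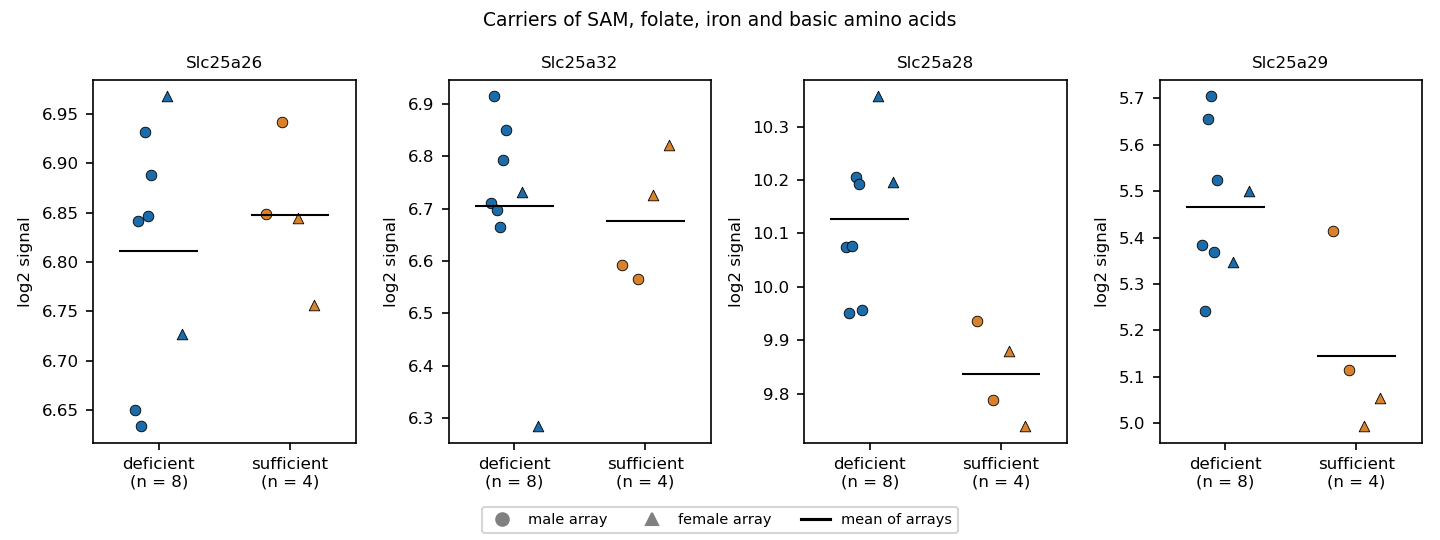
Log2 signal (y axis) on each array of Slc25a26, Slc25a32, Slc25a28 and Slc25a29, deficient left of sufficient, with circles for male arrays, triangles for female arrays and lines for the mean of the arrays. For Slc25a26 and Slc25a32 the diets overlap, and for Slc25a28 every deficient point lies above every sufficient one. For Slc25a29, 1 sufficient array at 5.41 lies among the deficient ones.

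Slc25a28, or mitoferrin 2, takes iron into the matrix for heme and iron-sulfur cluster assembly. It ran from 9.95 to 10.36 on deficient arrays, with a median of 10.13, and read 9.94, 9.88, 9.74 and 9.79 on sufficient arrays. All deficient arrays were above all sufficient arrays, with 9.95 against 9.94 where they came closest; 3.27% of all detected probes showed this, and 1 of the 28 carriers. The difference was 0.29 ± 0.10 (SE), with a limma adjusted p of 0.104 over labelled animals and 0.302 over sex-matched pairs, so it did not pass. Slc25a39, which is needed for mitochondrial glutathione, differed by 0.14. Of 9 detected enzymes of heme and iron-sulfur assembly, only the erythroid gene Alas2 passed, and it fell by 1.13 on the log2 scale (limma adjusted p 0.0239 over labelled animals and 0.213 over sex-matched pairs). It was detected on 2 of 8 deficient arrays and 4 of 4 sufficient arrays, so its deficient level is mostly background and the size of the fall is not well measured. Alas2 is one of 3 detected erythroid markers, whose list mean ran from 6.53 to 7.58 on deficient arrays and from 7.27 to 8.49 on sufficient arrays, and the part of red cell precursors in it was not tested.

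The carriers of phosphate and carboxylates lay below 0 in 4 of 4 genes, with a median of -0.15, and none passed. Slc25a3, which brings in phosphate for ATP synthesis, ran from 12.35 to 12.72 on deficient arrays with a median of 12.51, and read 12.35, 12.97, 12.79 and 12.72 on sufficient arrays. The diets overlapped, and 1 sufficient male array was as low as the lowest deficient one. The difference was -0.18 for both of its probes (limma adjusted p 0.272 and 0.229). Slc25a10, a dicarboxylate carrier, differed by -0.19, and Slc25a1, which exports citrate for lipid synthesis, by -0.02 and, on its other probe, -0.12. Slc25a11, which exchanges oxoglutarate for malate in the same shuttle as Slc25a12, differed by -0.12, and by -0.24 and -0.35 on its dimmer probes. No member of the 4 detected citrate export enzymes passed.

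Among the 8 detected nucleotide and coenzyme carriers none passed, and 3 lay above 0. Slc25a5, the adenine nucleotide translocator 2, ran from 13.62 to 13.78 on deficient arrays with a median of 13.71, and read 13.73, 13.84, 13.86 and 13.70 on sufficient arrays. The difference was -0.07, with a 95% interval of -0.25 to 0.10, and its probe sits near the top of the signal range, at the 99.68th percentile of detected probes. Slc25a24, a calcium-regulated carrier of ATP-Mg and phosphate, differed by -0.22, with its other probes at -0.27 and 0.00, and its homologue Slc25a25 by 0.00. The pyrimidine nucleotide carriers Slc25a33 and Slc25a36 differed by 0.09 and -0.01. Slc25a42, a coenzyme A carrier, differed by 0.17, the peroxisomal carrier Slc25a17 by -0.05 and Slc25a16 by -0.19. Slc25a36 varied most within the diets, with an SD of 0.598 over arrays, and 1 array of deficient animal 2 read 6.65 while the other deficient arrays read at least 7.93. Of the orphan carriers, Slc25a34 differed by -0.27, Slc25a35 by -0.14, Slc25a45 by 0.21 and Slc25a47 by -0.13.

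**Figure D4:**
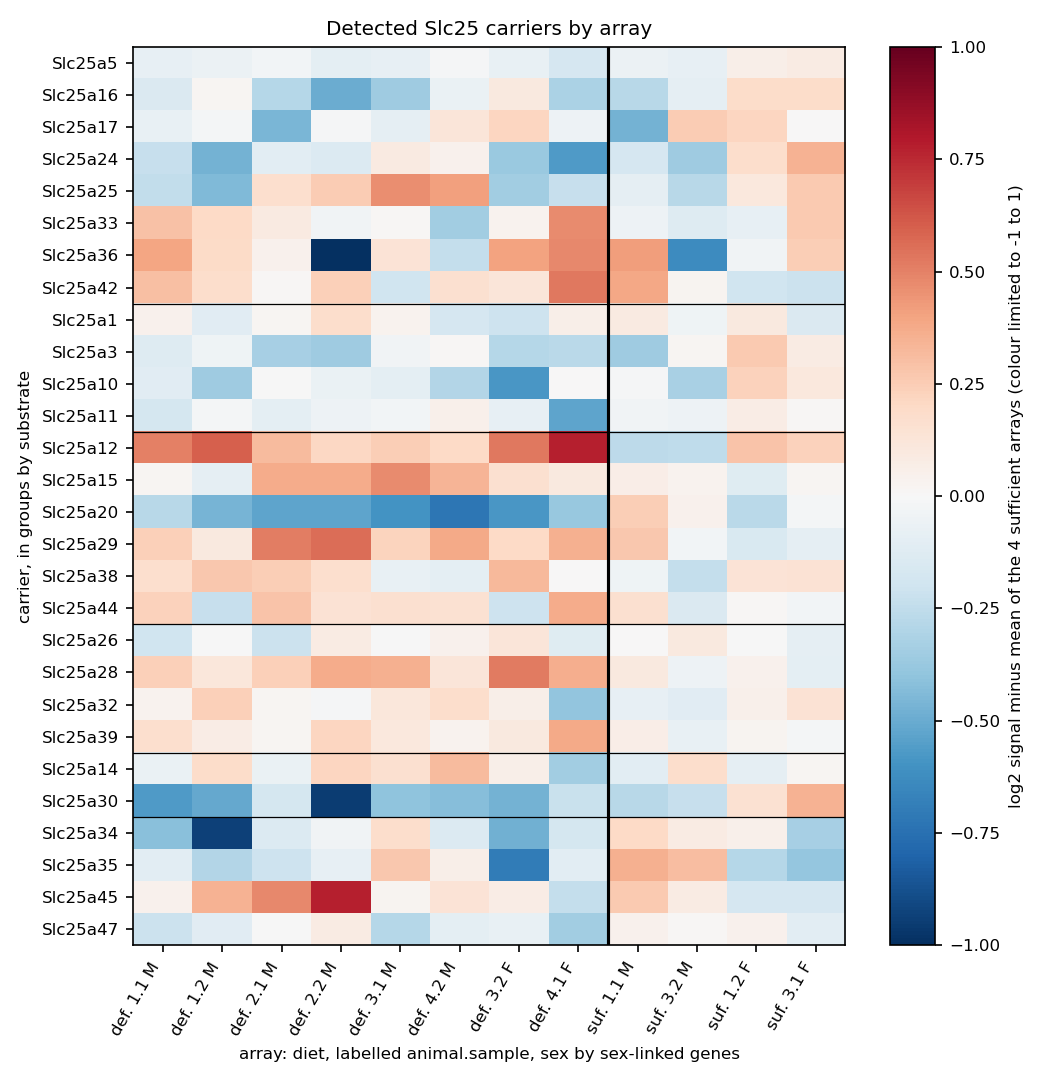
Log2 signal of each detected carrier on each of the 12 arrays (columns), shown as the difference from the mean of its 4 sufficient arrays (colour limited to 1 either way), with deficient arrays left of sufficient arrays and carriers in rows by substrate. Slc25a20 is low across the deficient columns, Slc25a12 is low in the sufficient male columns, and the low Slc25a36 value stands in 1 column of deficient animal 2.

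Differences between male and female arrays were as large as those between the diets for several carriers. On the sufficient diet, males minus females gave 0.67 for Slc25a35, -0.52 for Slc25a24, and -0.51 for both Slc25a12 and Slc25a30, from 2 arrays of each sex and with no test. The sufficient male arrays are also those with Tgm4 signal, so on this diet sex cannot be told apart from male accessory gland RNA. The differences among males below use these same arrays. Diet differences had the same sign in males and females for 17 of 28 carriers (60.7%), against 62.4% of all detected probes. For the brighter Slc25a24 probe the diet difference was -0.73 among females and 0.13 among males. A limma test of diet by sex over sex-matched pairs rests on 1 unit in 3 of its 4 arms, namely deficient females and both sufficient sexes. It gave this an unadjusted p of 0.0447 and an adjusted p of 0.891. With so few units, the 0 calls after adjustment over all probes show little about the carriers. Of all detected probes, 5.59% had an unadjusted p under 0.05 in that test. Slc25a3 differed by -0.45 among females and 0.02 among males, and Slc25a10 by -0.46 and 0.01.

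**Figure D5:**
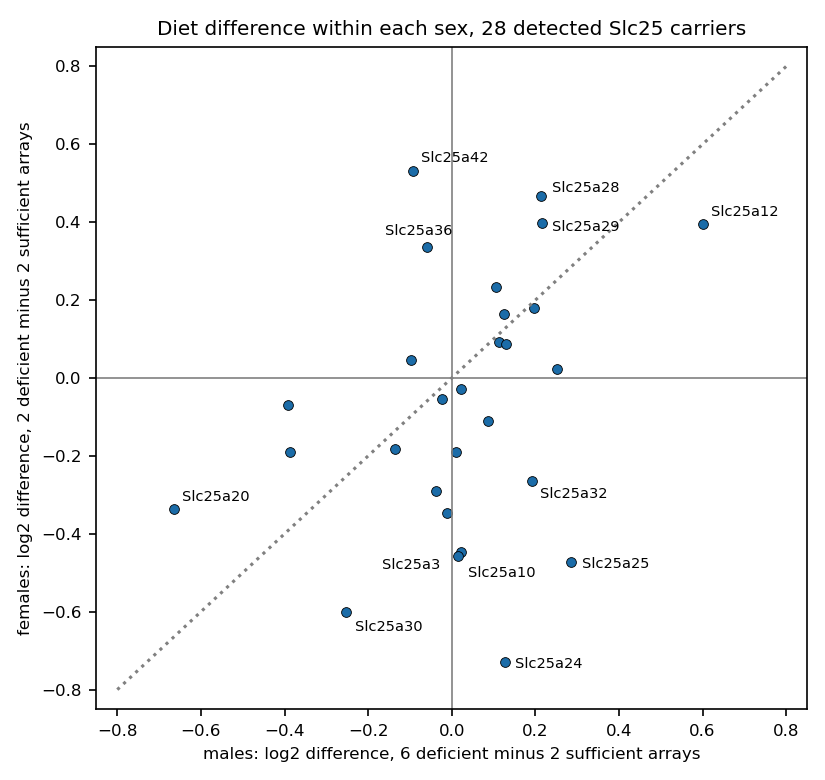
Log2 diet difference (deficient minus sufficient) among males (x axis) and among females (y axis) for the 28 detected carriers, 1 point per carrier. Slc25a20 and Slc25a30 lie below 0 in both sexes, Slc25a12 above 0 in both, and Slc25a24 at 0.13 among males and -0.73 among females.

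In the list of genes that import carriers and insert them into the inner membrane, no detected gene passed. Timm22, Agk, Tomm20 and Tomm40 were not detected, so the list covers that machinery only in part. Of 11 detected genes of that list, 9 lay above 0, and the median difference was 0.15. Among 10 detected genes of mitochondrial content, including the porins and mitochondrial chaperones, the median difference was -0.01 and none passed. Of the carriers outside the symbol rule, Mtch2, an outer membrane relative of the family, fell by 0.37 on the log2 scale (limma adjusted p 0.0441 over labelled animals and 0.231 over sex-matched pairs), and its relative Mtch1 differed by 0.10 and did not pass.

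The 20 undetected probes had mean log2 signals of 4.45 to 5.10. For 11 genes no probe was detected under the rule. These were Slc25a13, Slc25a18, Slc25a21, Slc25a22, Slc25a27, Slc25a31, Slc25a40, Slc25a41, Slc25a46, Slc25a48 and Slc25a53. For 10 of them no array passed, and Slc25a22 passed on 1 deficient and 1 sufficient array. Slc25a18 and Slc25a22 carry glutamate, Slc25a31 is the testis form of the adenine nucleotide translocator, and Slc25a27 is uncoupling protein 4 of the nervous system. An array signal at background does not show that a gene is silent.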

How the data were processed

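Colon RNA was extracted with Trizol and RNeasy columns and labelled for Illumina bead arrays, per the labels' protocols. The deposited scanner table gives, per the file headers, the linear intensity of each probe and its p-value for detection. The authors' deposited series matrix holds log2 values centred on each probe, and served as an alternative. The scanner software and its settings are not given in the sources used here. Background correction, quantile normalization and log2 used the neqc function (limma 3.58.1, R 4.3.3) with offset 16, and the negative controls were deduced from detection p. A probe was kept when at least 4 of 12 arrays had detection p under 0.05. The 2 arrays of each animal were averaged, and limma's lmFit and eBayes compared 4 deficient with 2 sufficient animals, Benjamini-Hochberg adjusted over 13497 probes. The number of units limits the precision, and an exact permutation of 6 labelled animals cannot give a p below 0.0667. Gene symbols came from GEO's platform annotation (23978 with 1 symbol, 1719 with none). Every detected member is named; values by array, or the range and median of the deficient arrays, are given for members past the threshold, for Slc25a26 and Slc25a32, and for the 3 brightest. Slc25a28 and Slc25a29 were added after their values were seen. A gene with several detected probes is given by the brightest. The members and lists were chosen with earlier results of these data known. The fit was tested on simulated data.

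Alternatives covered background correction, scaling, filters, array blocks, sex and each animal left out. Animal numbers do not pair the diets: deviations of same-numbered animals correlated at -0.06 and -0.05.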

Additional observations from a re-analysis of the deposited data

Results flagged for a closer look

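Over 84 groups of arrays or labelled animals on the deficient and sufficient diets, 6 held a lowest value that stood far from the others for the group's range. Chance gives about 1 group in 20, so several of the 84 would be flagged by chance alone. Slc25a36, a pyrimidine nucleotide carrier, had both a low array, sample 2 of deficient animal 2 at 6.65 with the next at 7.93, and a low labelled animal, deficient animal 2 at 7.43 with the next at 8.29. Both flags rest on the same low reading, since the animal's value averages that array with the animal's other one. Sample 1 of deficient animal 4 was low for the brightest Slc25a11 probe, at 9.04 with the next at 9.39, and for Slc25a32, at 6.29 with the next at 6.67. The dimmer Slc25a11 probes were not low on that array. They read 9.21 and 6.79 there, against deficient medians of 9.07 and 6.57. Sample 1 of deficient animal 2 was low for Slc25a17, at 9.39 with the next at 9.76. Deficient animal 1 was low for Slc25a34, at 6.81 with the next at 7.32. None of these 5 carriers passed the diet test.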

How the results depend on the processing

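Over labelled animals 3 carriers passed. Counts over all detected probes moved too, and were 1460 in that fit. The carrier count was 0 over sex-matched pairs (38 over all probes), with sex as a covariate (7), and among males alone or without the Tgm4 pairs (0 in both). It was 1 with the sex-matched pair as a random block (522) and 1 with the deposited matrix values (1057). It was 5 with the labelled animal as a random block (2116), where Slc25a28 and Slc25a29 passed as well. That block joins male and female arrays and had a negative consensus correlation of -0.23, and Slc25a29 was detected on 7 of 8 deficient but 1 of 4 sufficient arrays. The alternative among males was chosen after seeing the data. The count stayed at 2 or 3 under other background corrections, offsets, scalings and filters. Leaving out animals or pairs gave 0 to 3, and 0 without sufficient animal 1 or 3, which leaves 1 animal on that diet and 98 or 87 calls over all probes. Without deficient animal 3 it was 1, that of Slc25a20. Animal number as a replicate block gave 0 (638 over all probes), although the second Slc25a20 probe kept an adjusted p of 0.0326 there. With the matrix values, the Slc25a30 difference was -0.79 and its adjusted p 0.0632. Without the sex-matched deficient male pair, the second Slc25a20 probe had an adjusted p of 0.0404. Over all alternatives none of 114 values of the called carriers had the other sign, and 49 of 724 of the 25 others did, for 16 carriers, with sizes up to 0.281. Several alternatives change only the error or the filter and return the same difference, so their sign was fixed in advance. The rest reuse the same arrays, so these counts are a description and no independent support. Dim probes, among them those of Slc25a29 and Slc25a30, are limited by signal over background.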
